A study of Mus musculus with 6 samples.

Results

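Chemokine receptors are cell surface proteins that sense chemokines, small secreted proteins that attract cells. The conventional receptors signal through heterotrimeric G proteins of the inhibitory class and steer leukocytes along a chemokine gradient, while the atypical receptors bind chemokines without this signalling and internalize, transport or present them. In the central nervous system they are best known for the entry of monocytes and T cells, and for CXCL12 signalling in glial progenitors and vessels. The 9 genes described here were chosen by symbol. They are the conventional receptors Ccr1, Ccr2, Ccr7, Cxcr3, Cxcr4 and Cxcr6, the atypical receptors Ackr1 and Ackr3, and the chemerin-binding Ccrl2, and all 9 were found among the 25755 genes of the deposited table.

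RNA of whole optic nerves was sequenced in bulk from 3 mice with sham surgery (mice 1 to 3) and 3 mice with optic nerve crush (ON-CR, mice 4 to 6). All 6 mice were Nf1flox/flox; hGFAP-Cre, in which Cre under the human GFAP promoter removes Nf1 from neuroglial progenitors and their descendants, so both groups carried the deletion and no Nf1-intact nerve was compared here. Surgery was at 6 weeks and analysis at 12 weeks of age, given as 3 months in the labels, and the mice were perfused before the nerves were taken. The comparison asked how the injured nerve differs from the sham-operated nerve in the genes through which cells respond to chemokines.

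The libraries held 17414091 to 23621086 estimated reads on genes, and 1 read was worth a normalized value of 0.885 to 1.06. Myelin genes that define the nerve were abundant, with Mbp at 369255 to 1296440.0 in the 6 libraries. Sex-linked transcripts separated the groups in part. Xist, the RNA that coats the inactive X, was at 16.7, 2.14 and 30.9 after sham surgery and at 2708, 6357 and 6131 in mice 4, 5 and 6. Y-linked Ddx3y was at 1645, 1291 and 1544 after sham surgery and at 976, 4.19 and 0 in mice 4, 5 and 6. Sex and surgery therefore cannot be told apart here, and the library labelled mouse 4 held transcripts of both kinds. The labels name 1 mouse for each library. The study combined 2 mice in each sample for PCR, and whether any sequencing library held more than 1 mouse is not given in the sources used here. Haemoglobin genes were abundant despite perfusion, with a summed red blood cell list of 269397 to 509289.8 in sham and 136974 to 378023 in ON-CR mice. In bulk tissue, fewer cells of a type and less RNA per cell cannot be told apart.

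None of the 9 receptor genes differed between the groups at an adjusted p at or under 0.05 by limma, a linear model fitted to log2(value + 1) over all genes. The background at this threshold was 2.10% of all genes, and this share also stands beside every count of list genes called by this fit. By limma, 1 of the 9, Ackr1, had an unadjusted p at or under 0.05, beside 15.6% of all genes, which is also the background for every count of list genes at this threshold, and 0 of 9 were called by the robust fit or by voom. The mean log2 value was higher after ON-CR for 8 of the 9, beside 52.8% of all genes, and the median log2 difference of the 9 was 0.63, beside 0.03 for all genes. For Ackr1 and Cxcr4 every ON-CR value was above every sham value, which made 2 of 9 beside 10.5% of all genes.

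**Figure D1:**
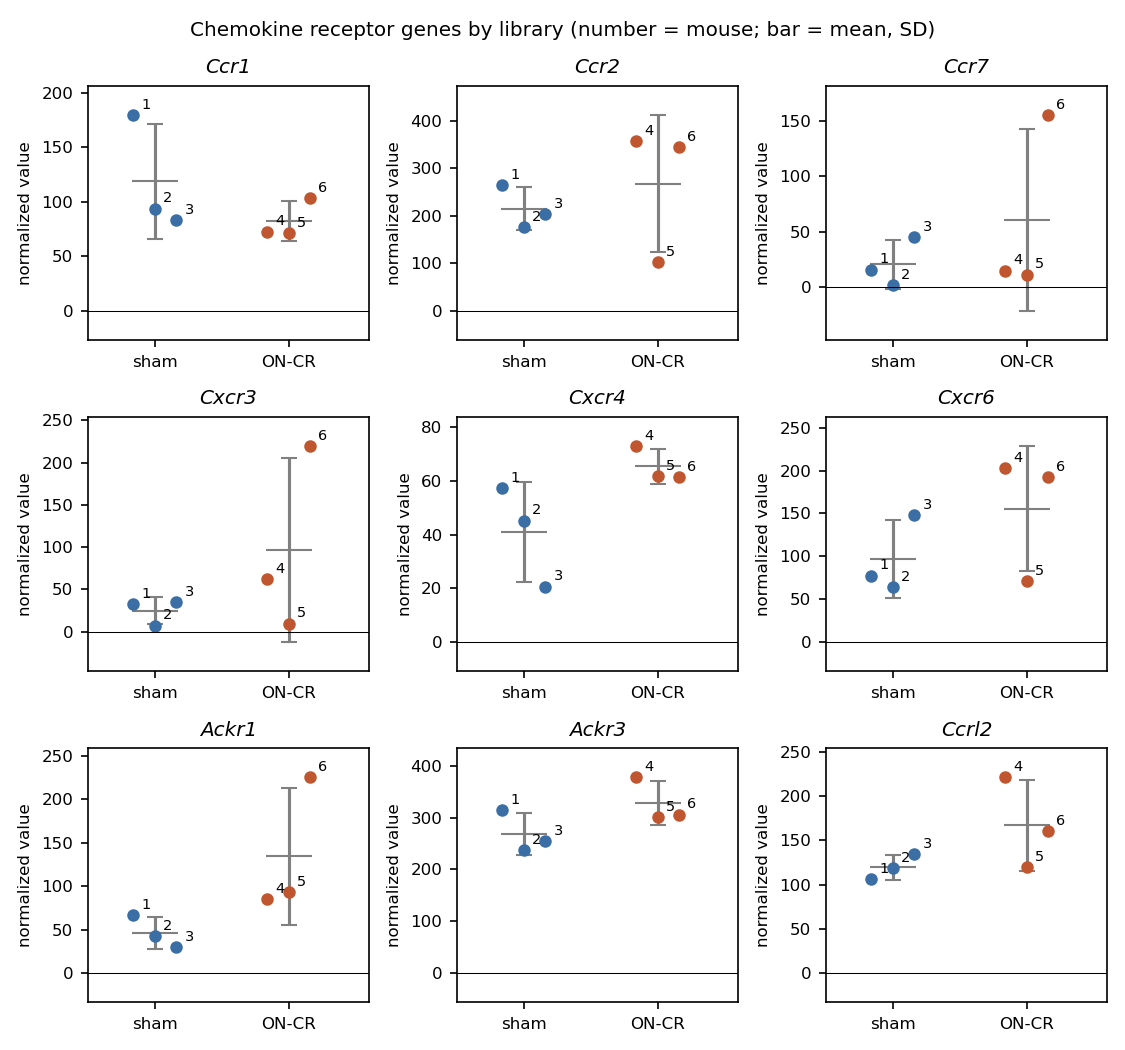
Normalized value (vertical axes, linear from 0) of the 9 receptor genes in the 3 sham (blue) and 3 ON-CR (orange) libraries, with the mouse number at each point and the group mean and SD in grey. The groups do not overlap for Ackr1 (29.8 to 66.5 in sham, 84.7 to 225 after ON-CR) and Cxcr4 (20.7 to 57.3 in sham, 61.3 to 72.8 after ON-CR), and mouse 6 lies far above the other mice for Ccr7 and Cxcr3.

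Ackr1 (the Duffy antigen receptor, at GRCm38 chr1:173331886-173333750, minus strand) is made by the endothelium of venules and by red cell precursors, and it binds many inflammatory chemokines of both the CC and CXC classes. Sham mice 1, 2 and 3 had normalized values of 66.5, 42.5 and 29.8, and after ON-CR mice 4, 5 and 6 had 84.7, 92.7 and 225. The 2 groups did not overlap, and mouse 6 was the highest by a wide margin. The group means were 46.3 ± 18.7 and 134 ± 78.7 (SD, n = 3 each), and the log2 difference was 1.44 ± 0.41 (SE, 95% interval 0.52 to 2.36), with an adjusted p of 0.116 by limma. The study's methods give a filter of an unadjusted p of 0.05 or less together with a 2-fold difference, applied to DESeq2 results. With these thresholds applied to limma values, Ackr1 was the 1 member of 9 that passed, beside 3.17% of all genes in the higher direction. Without mouse 6 the estimate was 0.997, with an adjusted p of 0.374, and Ackr1 no longer passed these thresholds. The study's results give a stricter filter, which asks for a lower p, a false discovery rate of 0.05 or less and a much larger fold change. By limma, with all 6 mice, Ackr1 met neither that rate nor that fold change.

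The count of Ackr1 is uncertain because its 5′ part lies in the last exon of Cadm3, a cell adhesion gene on the same strand. Of its 1405 bases of exon, 361 (25.7%) are shared with Cadm3, and 20.4% of its 50-base stretches occur in transcripts of Cadm3. Its estimated reads were whole in 1 of 6 libraries. Cadm3 itself was at 76.7, 60.2 and 35.9 in sham and 58.9, 165 and 91.8 in ON-CR mice. The ranges of Cadm3 overlapped, its log2 difference was 0.80 ± 0.40 (SE), and its adjusted p was 0.372 by limma. Its order was that of Ackr1 among the sham mice and another among the ON-CR mice. How much of Ackr1 came from Cadm3 was not tested.

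Both sources of Ackr1 were set beside it. The 10 endothelial markers summed to 4243 to 4951 in sham and 3965 to 4631 in ON-CR mice, with 0 of 10 called by limma, 1 of 10 at an unadjusted p at or under 0.05, and 0 of 10 called by voom or the robust fit. The log2 ratio of Ackr1 to this sum was -6.66 ± 0.55 after sham surgery and -5.10 ± 0.84 after ON-CR (SD, n = 3 each), a difference of 1.56 (exact two-sided permutation p = 0.1, the smallest that 3 against 3 allows, and 0.333 after Benjamini-Hochberg adjustment over 10 ratios). Against the red blood cell list the difference was 2.02 (exact permutation p = 0.1, adjusted 0.333), and all 5 genes of that list had lower means after ON-CR. Ackr1 is itself 1 of 9 venular markers and 1 of the 5 of them with an unadjusted p at or under 0.05. All 9 had higher means after ON-CR, beside 52.8% of all genes, and 1 was called. Without Ackr1 they summed to 5323 to 6157 in sham and 7348 to 9245 in ON-CR mice, without overlap, unlike the general endothelial list. Vcam1 and Nr2f2 had the largest values in this sum. Their means were 1651 and 1997 in sham and 2927 and 2352 in ON-CR mice. No sum without these 2 genes was taken, so how far the contrast of the 2 lists rests on them was not tested. The part of the venular markers in the Ackr1 difference was not tested. The called gene was Vcam1, an adhesion molecule for leukocytes also made by other cells, which rose from 1651 ± 148 to 2927 ± 539 (SD, n = 3 each), with a log2 difference of 0.81 ± 0.14 (SE) and an adjusted p of 0.0207 by limma. The call of Vcam1 was lost without any one of mice 1, 2, 3 and 6 (adjusted p up to 0.132). Selp, encoding P-selectin, was at 1.06, 0.885 and 2.82 in sham and 14.1, 3.15 and 29.1 in ON-CR mice, and was not called (adjusted p = 0.181).

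The 30 bases of Ackr1 that surround a GATA motif are shown because erythroid transcription of the human gene is known to depend on a GATA site near its start. RefSeq gives them on GRCm38.p6 at chr1:173333469-173333498, minus strand, with the match to AGATAA (read on the other strand) in capitals at bases 26 to 31 after the RefSeq start.
Ackr1: aagtcattagccctgggcacTTATCTtgga
AGATAA was present on either strand in 11.2% of 32851 mouse promoters of 300 bases (250 before to 50 after the start), and in 3 of the 8 members matched in that table. A member was counted if any of its promoters matched, and Ccrl2 had several, so the count of members and the share of promoters are unlike measures.

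Cxcr4 and Ackr3 are the conventional and the atypical receptor of CXCL12, a chemokine that retains progenitors and leukocytes in tissues. Cxcr4 (chr1:128588199-128592293, minus strand) signals and directs migration. Its normalized values were 57.3, 45.2 and 20.7 in the sham and 72.8, 61.9 and 61.3 in the ON-CR mice. The groups did not overlap, but the gap between sham mouse 1 and ON-CR mouse 6 was small, and the sham mice differed among themselves more than the ON-CR mice. The log2 difference was 0.77 ± 0.38 (SE, 95% interval -0.07 to 1.61) with an adjusted p of 0.361 by limma, and it fell to 0.35 without sham mouse 3.

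Ackr3 (chr1:90203980-90216751, plus strand) takes up CXCL12 and lowers its local concentration. It was at 314, 237 and 255 in sham and at 378, 301 and 306 in ON-CR mice, so the lowest ON-CR values lay under that of sham mouse 1. On the log2 scale the difference was 0.29 ± 0.17 (SE, 95% interval -0.09 to 0.67), with an adjusted p of 0.453 by limma. Cxcl12, the shared ligand, was at 1741, 1632 and 2384 in sham and 1632, 1260.1 and 1571 in ON-CR mice, with a log2 difference of -0.36 ± 0.16 (SE) and an adjusted p of 0.329. The log2 ratio of Cxcr4 to Ackr3 was -2.43, -2.37 and -3.56 in sham and -2.36, -2.26 and -2.30 in ON-CR mice. This ratio was nearly equal in the 3 ON-CR mice, and its group difference of 0.48 had an exact two-sided permutation p of 0.1 (0.333 adjusted), the smallest possible.

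The 250 bases before the RefSeq starts of this pair are shown side by side because the 2 genes share a ligand. Capitals mark matches, on either strand, to TATAAA and to the GC box GGGCGG. The stretches are chr1:128592300-128592549 (minus strand) for Cxcr4 and chr1:90203730-90203979 (plus strand) for Ackr3, on GRCm38.p6 from RefSeq.
Cxcr4: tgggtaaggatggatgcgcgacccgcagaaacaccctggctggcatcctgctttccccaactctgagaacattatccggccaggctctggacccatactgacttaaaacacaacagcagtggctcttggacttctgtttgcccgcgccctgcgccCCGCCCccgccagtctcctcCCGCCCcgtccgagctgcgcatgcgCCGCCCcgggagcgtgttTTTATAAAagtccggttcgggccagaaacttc
Ackr3: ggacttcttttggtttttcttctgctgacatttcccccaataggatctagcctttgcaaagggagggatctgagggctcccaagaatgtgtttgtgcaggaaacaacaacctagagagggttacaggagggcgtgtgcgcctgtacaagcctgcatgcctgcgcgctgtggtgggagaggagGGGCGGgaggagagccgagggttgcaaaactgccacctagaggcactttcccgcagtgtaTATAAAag
In the 300-base promoters, TATAAA was held by 2 of the 8 matched members, these 2, beside 13.6% of all promoters, and GGGCGG by 3 (Ackr3, Ccrl2 and Cxcr4), beside 35.7%. As for AGATAA, members were counted by any promoter and the shares are over single promoters, so the 2 measures are unlike. In Cxcr4 the 2 overlapping TATAAA matches, one on each strand, span bases 32 to 25 before the start. In Ackr3 the match lies closer, at bases 8 to 3 before the start.

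Ccr1 and Ccr2 are receptors of monocytes and macrophages, and both lie on chromosome 9. Ccr1 (chr9:123962124-123968692, minus strand), which binds CCL3, CCL5 and the mouse chemokines CCL6 and CCL9, was at 179, 93.8 and 83.6 in sham and 72.8, 71.3 and 104 in ON-CR mice. It was the 1 receptor of the 9 with a lower mean after ON-CR, and the groups overlapped, since ON-CR mouse 6 was above sham mice 2 and 3. The log2 difference was -0.46 ± 0.31 (SE, 95% interval -1.15 to 0.24) with an adjusted p of 0.531 by limma, and it was -0.12 without sham mouse 1.

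Of its 5 ligands, 2 rose. Ccl3, made by activated microglia and macrophages, rose from 17, 5.31 and 11.3 in sham to 295, 195 and 270.0 in ON-CR mice, a log2 difference of 4.49 ± 0.39 (SE, adjusted p = 0.000712). Ccl6 rose from 284, 246 and 239 to 1148, 589 and 1239, a log2 difference of 1.88 ± 0.25 (SE, adjusted p = 0.00552), which was not called without mouse 6 (adjusted p = 0.0673). Ccl9 (1.16 ± 0.30, adjusted p = 0.0827), Ccl7 (1.07 ± 0.43, adjusted p = 0.259) and Ccl5 (0.57 ± 0.71, adjusted p = 0.761) were not called, all by limma as log2 difference ± SE. Whether a ligand differed from its receptor was not tested.

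Ccr2 (chr9:124101950-124113557, plus strand) marks monocytes that leave the bone marrow toward CCL2. It was at 265, 176 and 204 in sham and at 356, 102.4 and 345 in ON-CR mice. Mouse 5 was the lowest and mice 4 and 6 the highest of all 6, so the ON-CR mice enclosed the sham range. On the log2 scale the difference was 0.13 ± 0.41 (SE, 95% interval -0.78 to 1.05, adjusted p = 0.914 by limma), and its sign turned on leaving out mouse 4 (-0.17) or mouse 6 (-0.15), while it was 0.72 (adjusted p = 0.0842) without mouse 5. Of its 50-base stretches, 1.91% occur in transcripts of other genes, and its estimated reads were whole in 2 of 6 libraries. Its ligands Ccl2 (42.4, 39 and 95.8 in sham, 103, 149 and 413 in ON-CR mice, adjusted p = 0.111), Ccl7 and Ccl12 (adjusted p = 0.326) were not called, with log2 differences of 1.75 ± 0.50, 1.07 ± 0.43 and 0.97 ± 0.44 (SE).

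Markers of monocytes and macrophages summed to 7696 to 9017 in sham and 5374 to 7929 in ON-CR mice, with 0 of 10 called by limma, the robust fit or voom, and 2 of 10 at an unadjusted p at or under 0.05. Most of the sum was Fn1, the gene of fibronectin, also made by other cells, and 6 of the 10 markers had higher means after ON-CR. Without Fn1 the sum was 1544 to 1875 in sham and 1289.9 to 2369.8 in ON-CR mice. Mouse 5 was lowest in both sums as in Ccr2. The log2 ratio of Ccr2 to this sum differed by 0.43 between the groups (exact permutation p = 0.4, adjusted 0.8), and that of Ccr1 by -0.16 (exact permutation p = 0.9, adjusted 0.9). With Fn1 left out, an alternative chosen after the data were seen, these differences were 0.05 and -0.54 (exact permutation p = 1 and 0.2, unadjusted).

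**Figure D2:**
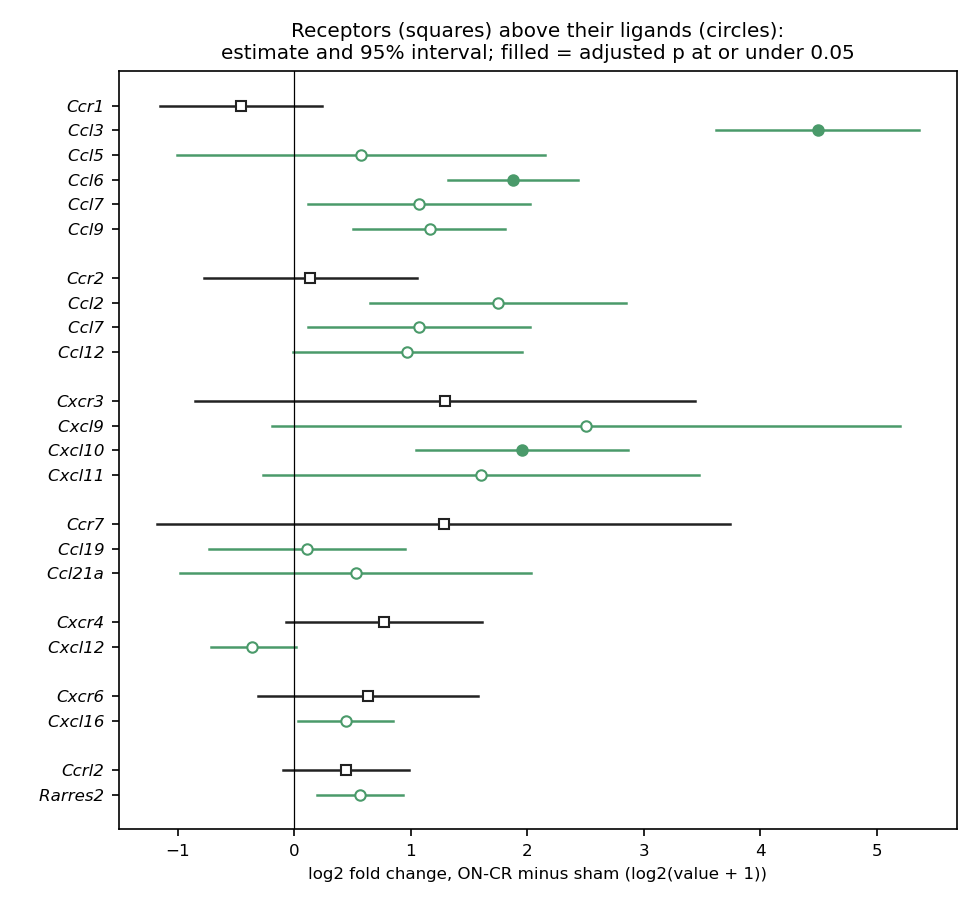
Log2 difference, ON-CR minus sham, with its 95% interval (horizontal axis), for 7 receptors (squares) and, under each, its ligands (circles), with filled symbols at an adjusted p at or under 0.05. Only the circles of Ccl3 (4.49), Ccl6 (1.88) and Cxcl10 (1.95) are filled, and no square is.

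Cxcr3, Cxcr6 and Ccr7 are receptors of lymphocytes. Cxcr3 (chrX:101731535-101734269, minus strand) guides activated T cells and natural killer cells toward chemokines induced by interferon, and it lies on the X chromosome. It was at 32.9, 7.08 and 34.7 in sham and at 61.8, 9.44 and 219 in ON-CR mice. The value of mouse 6 stood far above all others, while mouse 5 was near the lowest sham mouse. The log2 difference was 1.29 ± 0.97 (SE, 95% interval -0.85 to 3.44, adjusted p = 0.572 by limma), with 0.26 left without mouse 6 and 2.46 (adjusted p = 0.0828) without mouse 5.

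Of its 3 ligands, Cxcl10 rose, from 173, 65.5 and 196 in sham to 458, 352 and 812 in ON-CR mice, with a log2 difference of 1.95 ± 0.41 (SE, adjusted p = 0.0407 by limma). Its call was lost on leaving out any mouse but mouse 5, with an adjusted p of up to 0.237, and with the robust fit. Cxcl9, at 8.49, 3.54 and 78.9 in sham and 63.8, 17.8 and 514 in ON-CR mice (adjusted p = 0.355), and Cxcl11 (adjusted p = 0.396) were not called. Like Cxcr3, both were highest in mouse 6.

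Cxcr6 (chr9:123806475-123811760, plus strand) is found on tissue-resident T cells and binds CXCL16. It lies within the span of Fyco1 on the other strand, with no shared exon base. Its values were 77.5, 63.7 and 148 in sham and 202, 71.3 and 192 in ON-CR mice. Mice 4 and 6 were the highest, and mouse 5 was within the sham range. On the log2 scale the difference was 0.63 ± 0.43 (SE, 95% interval -0.31 to 1.58, adjusted p = 0.523 by limma), with 0.37 without mouse 4, 0.41 without mouse 6, 0.39 without mouse 2, 0.99 without mouse 3 and 1.12 (adjusted p = 0.0992) without mouse 5. Cxcl16 was at 519.8, 542 and 615 in sham and 821, 564 and 933 in ON-CR mice, 0.44 ± 0.18 (SE) on the log2 scale with an adjusted p of 0.283.

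Ccr7 (chr11:99144196-99155077, minus strand) brings naive T cells and mature dendritic cells to lymph nodes. It was at 15.9, 1.77 and 45.1 in sham and at 15, 11.5 and 155 in ON-CR mice, so sham mouse 2 held 2 estimated reads and mouse 6 held 149. Apart from mouse 6, the ON-CR values lay inside the sham range. The log2 difference was 1.28 ± 1.11 (SE, 95% interval -1.18 to 3.74, adjusted p = 0.632 by limma) and 0.13 without mouse 6. Its ligands Ccl19 (0.11 ± 0.38, adjusted p = 0.923) and Ccl21a (0.53 ± 0.68, adjusted p = 0.768), as log2 difference ± SE, were not called.

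T cell markers were set beside these receptors. The 15 markers summed to 529.5, 541 and 1025 in sham and 918, 611 and 2317 in ON-CR mice, and mouse 6 was the highest for the sum as for Cxcr3 and Ccr7. Thy1 made up much of some sums, at 166, 191 and 129.6 in sham and 200.4, 265 and 256 in ON-CR mice. No sum without Thy1 was taken. Cd3e, a subunit of the T cell receptor complex, was at 24.4, 40.7 and 67.6 in sham and 127, 28.3 and 243 in ON-CR mice. By limma 0 of 15 T cell markers were called, as by voom and the robust fit, and 2 of 15 had an unadjusted p at or under 0.05. Relative to the marker sum, the log2 ratio differed between the groups by 0.58 for Cxcr3 (exact permutation p = 0.5, adjusted 0.833), by 0.57 for Ccr7 (exact permutation p = 0.8, adjusted 0.9) and by -0.08 for Cxcr6 (exact permutation p = 0.9, adjusted 0.9). Natural killer cell markers were low, summing to 43.2 to 93 in sham and 43 to 195 in ON-CR mice. The part of T cell number in these receptor values was not tested.

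**Figure D3:**
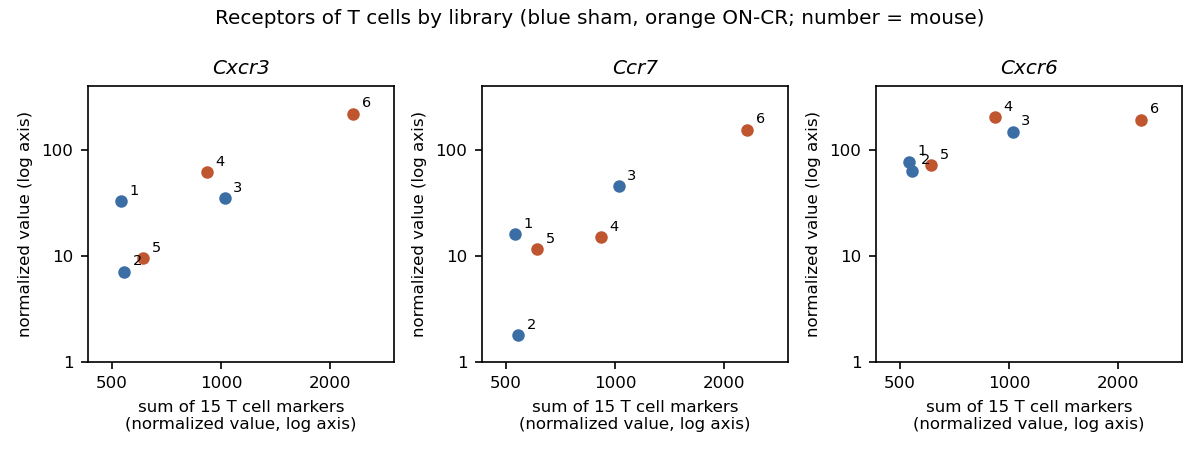
Normalized value of Cxcr3, Ccr7 and Cxcr6 (vertical, log axis) against the sum of 15 T cell markers (horizontal, log axis) in the 3 sham (blue) and 3 ON-CR (orange) libraries, with mouse numbers. Mouse 6 has the highest marker sum (2317) and the highest Cxcr3 (219) and Ccr7 (155), whereas Cxcr6 is highest in mouse 4 (202).

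Ccrl2 (chr9:111054486-111057519, minus strand) binds chemerin, the product of Rarres2, and presents it to the signalling receptor Cmklr1. It was at 106, 119 and 134 in sham and 221, 119.5 and 161 in ON-CR mice. Mice 4 and 6 were above all sham mice, and mouse 5 was not. On the log2 scale the difference was 0.44 ± 0.24 (SE, 95% interval -0.10 to 0.98) with an adjusted p of 0.423 by limma, and it was 0.22 without mouse 4 and 0.66 without mouse 5. Rarres2 was at 985, 1013 and 904 in sham and 1159, 1335 and 1859.9 in ON-CR mice, without overlap, and its log2 difference of 0.56 ± 0.17 (SE) had an adjusted p of 0.131. Cmklr1 was at 57.8 ± 24 and 61.1 ± 15.8 (SD, n = 3 each, adjusted p = 0.909).

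Levels of different genes were compared only as normalized value per kb of exon. Ackr3 had the highest mean level, 80.2 ± 12 after sham surgery and 98 ± 12.9 after ON-CR (SD, n = 3 each). Next in the order of the mean over 6 mice came Cxcr6 (65.2), Ackr1 (64.2), Ccrl2 (55.2), Ccr2 (35.7), Ccr1 (35.6), Cxcr3 (35.2), Cxcr4 (29.4) and Ccr7 (20.6). Neighbours in this order had overlapping ranges in both groups, except that in sham mice Ccrl2 was above Ccr2 and Ccr1 above Cxcr3 without overlap. The order differed between the groups. Ccr1 was at place 4 in sham and 9 after ON-CR, Ackr1 at 5 and 2, and Cxcr3 at 8 and 5, whereas Ackr3 was at 1 in both. The ON-CR places of Cxcr3, Ccr7, Ackr1 and Ccr1 depend on mouse 6. There Cxcr3 and Ccr7 reached 127 and 78.2 per kb, beside 4.09 to 35.7 and 0.895 to 22.8 in the other mice. Ackr1 reached 160.1 in mouse 6, beside 60.3 and 66 in mice 4 and 5. The ON-CR mean of Ccr1 (29.2) was close under that of Ccr7 (30.5), which mouse 6 raised.

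**Figure D4:**
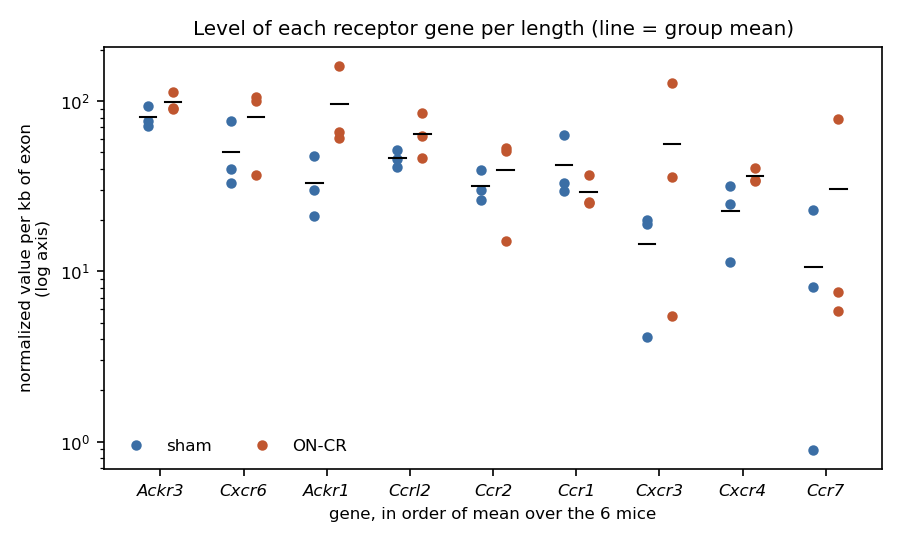
Normalized value per kb of exon (vertical, log axis) of the 9 receptor genes in order of their mean over 6 mice, with a point for each sham (blue) and ON-CR (orange) library and a line at each group mean. Ackr3 varies least, between 70.9 and 113, and Ccr7 most, between 0.895 and 78.2.

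The other chemokine and chemerin receptors were read alongside. Of 17 listed, 14 were in the table, and 0 of 14 were called by limma, the robust fit or voom, with 2 of 14 at an unadjusted p at or under 0.05. Their median log2 difference was 0.23. Cx3cr1, the fractalkine receptor of microglia, had the highest values of these, at 2885, 2294 and 2052 in sham and 4979, 2731 and 4434 in ON-CR mice, with a log2 difference of 0.72 ± 0.21 (SE, adjusted p = 0.128). Without mouse 5 it was called (0.98, adjusted p = 0.00745), and it was the 1 receptor called in that fit. Ccr8 was at 0, 0 and 1.88 in sham and 0.997, 6.29 and 38.4 in ON-CR mice, and Ccr6 at 0, 7.08 and 10.3 and at 3.99, 1.05 and 57.1, so both were high in mouse 6 alone.

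**Figure D5:**
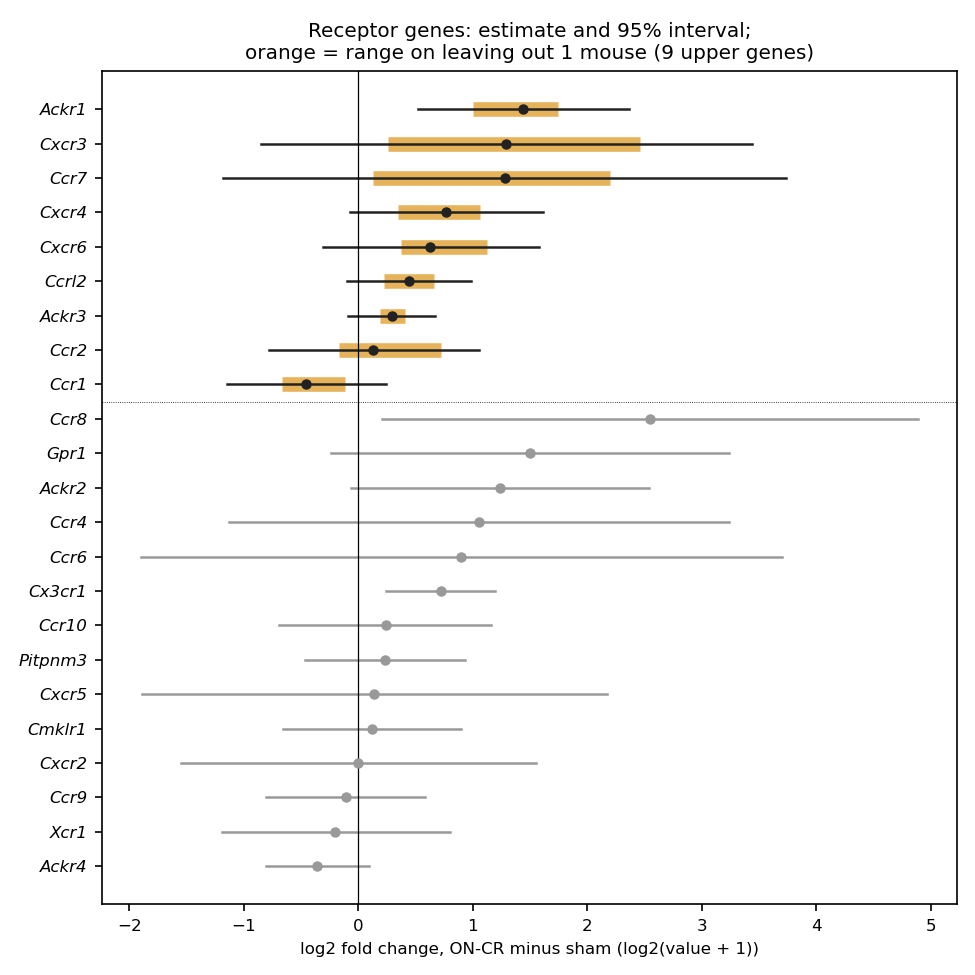
Log2 difference, ON-CR minus sham (horizontal axis), with its 95% interval for the 9 receptor genes (above the dotted line) and the 14 others, and in orange the range of the estimate when 1 mouse is left out. The interval of Ackr1 (0.52 to 2.36) is the one among the 9 that lies wholly on one side of 0, and the orange range of Ccr2 (-0.17 to 0.72) crosses 0.

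Over the 18 listed ligands of the 9 receptors, 17 were in the table, 3 rose (Ccl3, Ccl6 and Cxcl10) and 0 fell by limma, beside 2.10% of all genes called. The mean log2 value was higher after ON-CR for 15 of the 17, beside 52.8% of all genes. An unadjusted p at or under 0.05 was found for 8 of the 17, beside 15.6% of all genes. Of 28 genes that carry or end receptor signals, 3 rose and 2 fell, and 12 had an unadjusted p at or under 0.05. Dock2, which couples chemokine receptors to Rac in leukocytes, rose from 163, 192 and 229 to 512, 362 and 625 (log2 difference 1.33 ± 0.22 SE, adjusted p = 0.0139). Rgs2 and Rgs10, which shorten G protein signals, rose by 0.96 ± 0.17 and 0.72 ± 0.16 (SE) on the log2 scale (adjusted p = 0.02 and 0.0485). The G protein subunits Gnb2 (-0.70 ± 0.12, adjusted p = 0.021) and Gnai1 (-0.69 ± 0.15, adjusted p = 0.0462) fell, as log2 difference ± SE. Both are broadly expressed, and 8 of 10 oligodendrocyte markers also fell in these nerves, Mbp by 1.42 on the log2 scale (adjusted p = 0.0117). Of the oligodendrocyte markers, 0 of 10 were called without mouse 6, and the adjusted p of Mbp was then 0.163, and 0.108 without mouse 2. Gnai1 was not called by voom (adjusted p = 0.0671), under total scaling (0.0645), without mouse 3 (0.0693) or without mouse 5 (0.0666). All 5 signalling calls were lost without mouse 6, without sham mouse 1 or without sham mouse 2. The part of the oligodendrocyte fall in these values was not tested.

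By the root mean square difference of centred log2(value + 1) over the 6 libraries, the genes with the most similar pattern among 14428 others were found for each receptor. Nearest to Cxcr3 were Gm43302 (0.34), Gimap3 (0.44) and Gm12250 (0.55), beside a spread of Cxcr3 itself of 1.59. For Ccr7 (spread 1.78) they were Dnase1l3 (0.55), Gm43302 (0.76) and Cytip (0.79), and for Cxcr6 (0.69) Jaml (0.15), Serpinb8 (0.20) and Rasl11a (0.20). Ackr1 (0.91) was followed by Rcan1 (0.22), Ccl9 (0.28) and Asns (0.29), and Cxcr4 (0.58) by Cyp4f14 (0.09), Gm35082 (0.13) and Otulin (0.18). Ccr2 (0.62) was nearest to Serpina1d (0.12), Serpina1b (0.18) and Pla2g2d (0.19), and Ccr1 (0.45) to Ube2l6, Ctla2a and Thnsl2 (0.17 each). Ccrl2 (0.35) was nearest to Gm17936, Serpinf1 and Gm43237 (0.09 each), and Ackr3 (0.22) to Faap20 (0.06), Tctn1 (0.07) and Rnf182 (0.07). With so many candidates over 6 points, near matches arise readily, and these are descriptions.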

How the data were processed

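Optic nerve RNA of 3 sham and 3 ON-CR mice, grouped by the sample labels, was analysed. The authors made libraries with a SMARTer Ultra Low kit, which does not mark strand, aligned the reads to mm10 with DRAGEN, applied median normalization in Partek 10.0 and tested with DESeq2. The deposited values are a normalized signal per gene and are not whole numbers, so no count model was run. Estimated reads were obtained by dividing each library by its commonest low value. With a tolerance of 0.05, 70.3% to 72.7% of values were whole, so reads served only for depth and scaling. Counting error is the only error these depths describe.

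Values were tested as log2(value + 1), which understates changes of low genes, with limma 3.58.1 in R 4.3.3 (mean-variance trend, Benjamini-Hochberg adjustment over 25755 genes). Unless an exact permutation test is named, every p is from limma. The script was tested on simulated data. Replicates differed by more than sampling noise (chi-square per degree of freedom 16.5 to 47.2) and were counted singly. Positions are from GENCODE on GRCm38, the assembly of mm10, and exon overlap and shared 50-base stretches were computed from it. Promoters are from RefSeq, which matched 8 of the 9 members, not Ccr7.

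The members and lists were chosen with earlier results of these data known. The text names all members, genes of the other lists called at an adjusted p at or under 0.05, the members' ligands, and the 3 genes of mean value at least 50 nearest in pattern to each member of mean value at least 10. Cadm3, Fyco1, Cx3cr1, Ccr6, Ccr8, Cmklr1, Fn1, Selp, Nr2f2, Cd3e, Thy1 and the genes in the closing section were named after their values were seen. Lists of microglia, B cells, dendritic cells, neutrophils, pericytes, fibroblasts, astrocytes, muscle, photoreceptors and epithelium were also counted. Alternatives were other pseudocounts, scalings, fits and filters, and leaving out each mouse. A marker sum without Fn1 was added after the data were seen. A further receptor is not reported.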

Additional observations from a re-analysis of the deposited data

How the results depend on the processing

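No receptor of the 9 was called under any of 14 alternatives, and 124 of 126 values of members kept their direction. The exceptions were Ccr2 without mouse 4 (-0.17) and without mouse 6 (-0.15), with 0.72 as its highest value without 1 mouse. Among ligands, Ccl19 (-0.35 to 0.58) and Ccl5 (-0.32 to 1.32) turned without mouse 6, and Cxcl5 (-0.61 to 0.38) without mouse 1 or mouse 6 (0.16). Leaving out 1 mouse at a time gave 67 (without mouse 6) to 854 (without mouse 5) called genes in place of 540. With the looser of the study's filters applied to limma values, 0 to 3 members passed in place of 1. These fits called 0 to 1 other receptors, 1 to 5 ligands in place of 3 and 0 to 7 signalling genes in place of 5. Without the mean-variance trend, 7 genes, 0 ligands and 0 signalling genes were called. The reported split was 250 higher and 290 lower. Total scaling gave 421 and 195 and voom 350 and 177, with the median log2 difference of all genes at 0.15 and 0.16 in place of 0.03, and the cause was not tested. Cxcl1, Cxcl5 and Ccl21a had a mean value under 10 and no value under that filter. No paired analysis was possible because the mice carry different numbers in the 2 groups. With 3 mice a group and 2 to 379 estimated reads a member, the intervals given hold the differences compatible with these data. A receptor that was not called is therefore not shown to be unchanged.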

Other observations

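The highest of the 6 libraries was ON-CR mouse 4 for 5 of the 9 receptors, ON-CR mouse 6 for 3 and sham mouse 1 for 1. Over all genes these libraries were the highest for 13.6%, 20% and 15.8%. Mouse 5 was the highest for 0 of the 9 receptors and for 20.6% of all genes.

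The summed B cell markers, like Cxcr3 and Ccr7, were highest in mouse 6. The 6 markers in the table summed to 174, 69.1 and 119 in sham mice 1, 2 and 3 and to 90.7, 88.1 and 634 in ON-CR mice 4, 5 and 6, and Cxcr5, the receptor that guides B cells to follicles, was at 4.24, 3.56 and 6.61 and at 1.02, 3.15 and 28. Neither Cxcr5 (adjusted p = 0.963) nor any of these B cell markers had an adjusted p at or under 0.05 by limma, 1 of the 6 had an unadjusted p under it, and voom and the robust fit called 0 of 6.

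Among dendritic cell markers, Itgax, an integrin subunit also made by activated microglia, rose from 29.7, 26.6 and 31.7 to 301, 163 and 401 (log2 difference 3.16 ± 0.32 SE, adjusted p = 0.00168 by limma), while Ccr7, the receptor of mature dendritic cells, was not called. Of the 10 dendritic markers 6 had higher means after ON-CR, and Itgax was the 1 called.

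Markers of respiratory and glandular epithelium, tissue foreign to the nerve, summed to 267, 166 and 8388 in the sham mice and to 38.9, 5561 and 6304 in the ON-CR mice, so they did not follow the groups.

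In the other cell type lists, limma called S100b alone of 10 astrocyte markers (log2 difference -0.75, adjusted p = 0.0185). Means after ON-CR were higher for 5 of these markers and lower for 5. The 10 markers summed to 230025 to 282227 in sham and 292878 to 323679.7 in ON-CR mice, without overlap. Gfap had the largest values in that sum, with means of 114862 in sham and 179241 in ON-CR mice (adjusted p = 0.0859 by limma). Of these 10, 6 had an unadjusted p at or under 0.05, the robust fit called 2 and voom called 4. Limma called 0 of 10 for microglia, 9 for neutrophils, 8 for pericytes and smooth muscle, 9 for meningeal fibroblasts, 6 for skeletal muscle, 4 for photoreceptors and 6 for the epithelium. At an unadjusted p at or under 0.05 there were 2, 1, 1, 4, 0, 1 and 0 of these, in that order. In these 7 lists the robust fit called 0, and voom called 1, in microglia.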
